A study of Rattus norvegicus with 8 samples.

Results

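The E2F transcription factors E2f1 to E2f8 and the pocket proteins Rbl1 and Rbl2 were followed as 10 genes among the 24059 genes of the deposited count table, each found by its symbol and each with a single row. All 10 passed the filter on low counts and are among the 16976 genes tested. PolyA-selected RNA was sequenced from GFP-positive germ cells of the testes of transgenic Sprague-Dawley rats (GCS-EGFP), in which green fluorescent protein marks germ cells. Control rats (numbers 1, 4, 5 and 9) received vehicle and DXO rats (numbers 2, 3, 6 and 8) received doxorubicin at 5 mg/kg on postnatal day 6, and cells were taken 24 h later. All 8 rats carry the transgene, each library comes from 1 rat, and the promoter that drives the reporter is not given in the sources used here. Doxorubicin is an anthracycline that traps topoisomerase II on DNA and breaks the strands.

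E2F proteins switch the genes of DNA replication and cell division on and off. E2F1, E2F2 and E2F3 mainly activate, and E2F4 and E2F5 mainly repress together with the pocket proteins p107 (Rbl1) and p130 (Rbl2). E2F6 represses through Polycomb complexes without a pocket protein, and the atypical E2F7 and E2F8 repress without a dimerisation partner. Cyclin-dependent kinases phosphorylate the pocket proteins and free the E2Fs, whereas after DNA damage the kinase inhibitor p21 (Cdkn1a) holds these kinases back. Spermatogonia of this age divide by mitosis, a setting in which this switch is in use.

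Total estimated counts ran from 41253848 in control rat 9 to 58871101 in DXO rat 2. The members had between 256 counts (Rbl2 in control rat 9) and 4889 counts (E2f5 in DXO rat 2) in a library, so counting error at the lowest count was 6.25% for Rbl2, 6.05% for E2f2 and at most 4.77% for the others. The germ cell label was checked on 8 markers, Ddx4 and Dazl among them. All 8 exceeded 1 CPM (counts-per-million, scaled by TMM factors), and their sum was 2620 to 2690 CPM in controls and 2660 to 2760 CPM in DXO libraries. Summed markers of other cells reached at most 53.3 CPM for Sertoli, 8.97 CPM for Leydig, 64.9 CPM for peritubular and stromal, 95.1 CPM for endothelial, 6.28 CPM for macrophage and leukocyte and 13.7 CPM for erythroid cells. Of these lists, the endothelial sum was 74.1 to 87.3 CPM in controls and 85.0 to 95.1 CPM after doxorubicin and the erythroid sum 6.33 to 8.20 and 8.18 to 13.7 CPM, and their part in the results was not tested. Most of the endothelial sum was Pecam1, at 63.0 to 74.5 CPM in controls and 71.6 to 83.7 CPM after doxorubicin. Cdh5, Kdr, Tek and Vwf each stayed at or below 5.40 CPM, and the groups overlapped in every gene of that list. Within the erythroid sum, Slc4a1, the band 3 anion exchanger, was at 2.62 to 3.36 CPM in controls and 6.08 to 10.8 CPM after doxorubicin. The globin genes of the erythroid list went the other way, Hbb from 1.17 to 1.74 CPM in controls against 0.398 to 1.16 CPM, and Hba-a1 from 1.65 to 2.66 CPM against 0.688 to 1.42 CPM, with no overlap between the groups for either. Over all genes edgeR called 1 of the 5 erythroid markers and 0 of each other marker list, where it called 0.112% of all genes. None of the marker genes was at 0 in all libraries. Libraries were also compared in pairs by a chi-square per degree of freedom over gene counts. DXO rat 2 differed from the other DXO rats by 21 to 23.3, and these from each other by 6.22 to 10.6. Control rat 1 differed from the other controls by 16.3 to 20.9, and these from each other by 8.98 to 10.4. Of the genes named here, DXO rat 2 stood apart most plainly in Cdkn1a (36 CPM against 15.0 to 16.9 CPM). Values without 1 of these rats are given where they bear on a member. CPM is not divided by transcript length, so levels are compared between rats and not between members.

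The comparison of DXO with control rats asks whether transcripts of the E2F switch itself had changed a day after the drug. The lowest p-values among the members belonged to the atypical repressor E2f8, the activator E2f2 and the second atypical repressor E2f7, all with lower means after doxorubicin, while E2f1, E2f3, E2f4, Rbl1 and Rbl2 had log2 fold changes between -0.06 and 0.03. None of the 10 members passed edgeR's quasi-likelihood test with Benjamini-Hochberg adjustment over all genes, a test that called 0.112% of all genes (0.106% higher and 0.00589% lower). With no adjustment, p was below 0.05 for 4 members that were lower (E2f8, E2f2, E2f7 and E2f6) and 1 that was higher (E2f5), where this holds for 2.56% and 4.19% of all genes. These counts depend on single rats: without any one rat other than control rat 1, 3 or 4 of the lower members stayed below 0.05, and without control rat 1 only E2f8 did. Without control rat 1 the edgeR unadjusted p was 0.0542 for E2f2, 0.0548 for E2f7 and 0.12 for E2f6. For E2f7 it was 0.0519 without DXO rat 2. For E2f5 it was above 0.05 in 5 of 8 fits that left out 1 rat, without control rat 4, 5 or 9 or DXO rat 2 or 8, and reached 0.0999. DESeq2 called E2f8 lower over all genes (adjusted p = 0.00918) and 0 of the other members, with 0.0621% of all genes called lower, and limma-voom called 0 members. The groups did not overlap for E2f8 on the lower side and for E2f5 on the higher side, against 1.95% and 2.77% of all genes. The median log2 fold change was -0.05 over the members and -0.0047 over all genes tested. The members' median was -0.026 without control rat 4, -0.0319 without control rat 1 and 0.00363 within rats 5 to 9, where it was above 0. In bulk libraries, fewer cells of a type or cell cycle phase and less RNA per cell cannot be told apart.

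**Figure D1:**
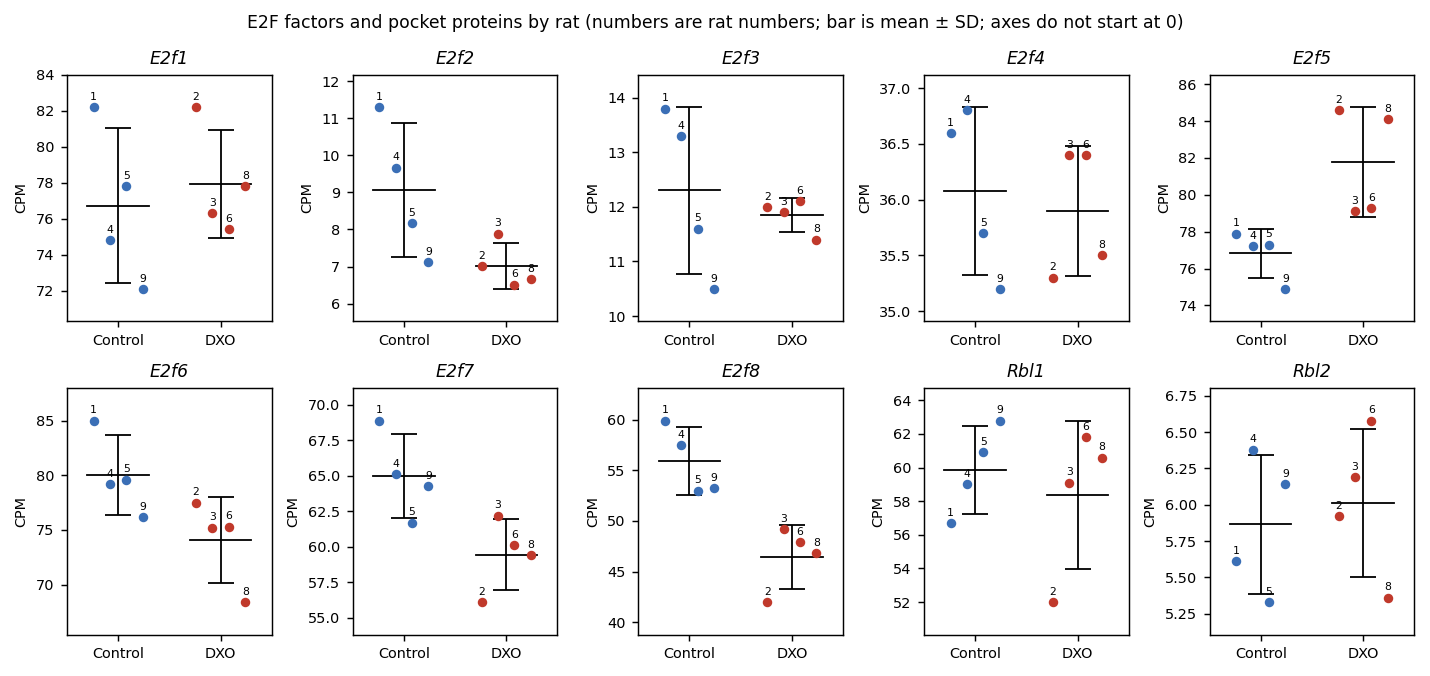
TMM-scaled CPM (vertical axes, which do not start at 0) of each E2F factor and pocket protein in the 4 control rats (blue) and the 4 DXO rats (red), with rat numbers beside the points and the mean ± SD as bars. E2f8 lies between 53.0 and 59.9 CPM in controls and between 42.0 and 49.2 CPM after doxorubicin, and E2f5 is the member with all DXO rats above all controls.

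Among the activators, E2f1 (ENSRNOG00000016708.8), the best studied inducer of S phase genes and also of pro-death genes, stood at 82.2, 74.8, 77.8 and 72.1 CPM in control rats 1, 4, 5 and 9 and at 82.2, 76.3, 75.4 and 77.8 CPM in DXO rats 2, 3, 6 and 8. The DXO rats thus lay within the range of the controls. The log2 fold change of E2f1 was 0.02 ± 0.05 (SE), with a 95% interval from -0.08 to 0.13, that is from -5.46% to 9.11% (edgeR adjusted p = 0.979).

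E2f2 (ENSRNOG00000047741.3), an activator also known from blood cell development, measured 11.3, 9.67, 8.17 and 7.12 CPM in control rats 1, 4, 5 and 9. In DXO rats 2, 3, 6 and 8 it measured 7.01, 7.89, 6.51 and 6.66 CPM. Control rat 9 lay below DXO rat 3, so the groups overlapped, and the controls were widely spread, with an SD of 19.9% of their mean against 8.80% in the DXO rats. A log2 fold change of -0.37 ± 0.13 (95% interval -0.66 to -0.09), or -22.7%, did not pass (edgeR adjusted p = 0.517). Without control rat 1, the highest of all 8, it was -0.25 (edgeR unadjusted p = 0.0542).

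E2f3 (ENSRNOG00000029273.6), which encodes a long and a short isoform that gene counts do not separate, stood at 13.8, 13.3, 11.6 and 10.5 CPM in control rats 1, 4, 5 and 9. The DXO rats 2, 3, 6 and 8 lay inside that range at 12, 11.9, 12.1 and 11.4 CPM. Its log2 fold change was -0.06 ± 0.09 (95% interval -0.25 to 0.14, edgeR adjusted p = 0.967), and its sign turned without control rat 1 (0.0032).

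Of the repressors that work with pocket proteins, E2f4 (ENSRNOG00000015708.8), the main E2F of resting cells, had the narrowest spread of all members after doxorubicin. It measured 35.2 to 36.8 CPM in controls and 35.3 to 36.4 CPM in DXO rats, and its log2 fold change of -0.01 had a 95% interval from -0.10 to 0.09, or -6.84% to 6.23% (edgeR adjusted p = 0.994). E2f5 (ENSRNOG00000010760.8), its close relative, measured 77.9, 77.2, 77.3 and 74.9 CPM in control rats 1, 4, 5 and 9. In DXO rats 2, 3, 6 and 8 it measured 84.6, 79.1, 79.3 and 84.1 CPM, all above every control. Its log2 fold change was 0.09 ± 0.04 (95% interval 0.01 to 0.17), a difference of 6.48% that did not pass (edgeR adjusted p = 0.674; log2 fold change 0.07 without DXO rat 2).

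E2f6 (ENSRNOG00000004449.8), the Polycomb-linked repressor that keeps germline genes silent in body cells, measured 85.0, 79.2, 79.6 and 76.2 CPM in control rats 1, 4, 5 and 9 and 77.5, 75.2, 75.3 and 68.4 CPM in DXO rats 2, 3, 6 and 8. DXO rat 2 stood above control rat 9, so the groups overlapped. The log2 fold change of E2f6 was -0.11 ± 0.05 (95% interval -0.22 to -0.01, edgeR adjusted p = 0.7), and its unadjusted p exceeded 0.05 in 6 of 8 fits that left out 1 rat.

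The atypical repressors E2f7 and E2f8 are themselves induced by activating E2Fs in S phase and shut the same target genes off again, and E2f7 is also a known target of p53 in other cells. E2f8 (ENSRNOG00000022537.7) measured 59.9, 57.5, 53.0 and 53.2 CPM in control rats 1, 4, 5 and 9. In DXO rats 2, 3, 6 and 8 it measured 42.0, 49.2, 47.9 and 46.8 CPM. Every DXO rat was below every control, and DXO rat 2 was the lowest of the 8. Its log2 fold change of -0.27 ± 0.06 (95% interval -0.40 to -0.14), or -16.9%, had rank 82 by p among the 16976 genes and did not pass (edgeR adjusted p = 0.126). Without DXO rat 2 the log2 fold change of E2f8 was -0.22 (edgeR adjusted p = 0.180).

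E2f7 (ENSRNOG00000026252.6) measured 68.9, 65.1, 61.7 and 64.3 CPM in control rats 1, 4, 5 and 9 and 56.1, 62.2, 60.1 and 59.4 CPM in DXO rats 2, 3, 6 and 8. Control rat 5 was below DXO rat 3, while the other DXO rats lay below all controls. For E2f7 the log2 fold change was -0.13 ± 0.05 (95% interval -0.23 to -0.03), or -8.56%, and did not pass (edgeR adjusted p = 0.54). Without DXO rat 2 it was -0.10 (edgeR adjusted p = 0.883).

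Rbl1 (ENSRNOG00000006921.7), which encodes p107, the pocket protein of cycling cells, measured 56.7, 59, 60.9 and 62.8 CPM in control rats 1, 4, 5 and 9 and 52.0, 59.1, 61.8 and 60.6 CPM in DXO rats 2, 3, 6 and 8. Only DXO rat 2 lay outside the range of the controls. The log2 fold change of Rbl1 was -0.04 ± 0.06 (95% interval -0.16 to 0.09, edgeR adjusted p = 0.964) and 0.01 without DXO rat 2. Rbl2 (ENSRNOG00000012153.4), which encodes p130, the pocket protein that accumulates in resting cells, measured 5.33 to 6.38 CPM in controls and 5.36 to 6.58 CPM in DXO rats. Its log2 fold change of 0.03 ± 0.10 had a 95% interval from -0.19 to 0.26, so a difference between -12.1% and 19.4% was not resolved (edgeR adjusted p = 0.980).

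**Figure D2:**
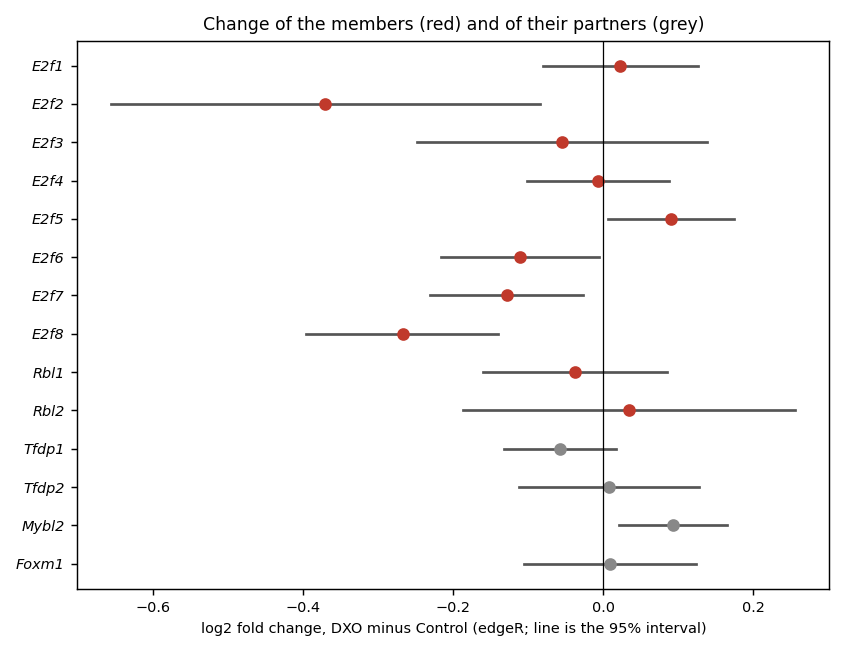
Log2 fold change of DXO against control rats from edgeR (horizontal axis) with its 95% interval for the 10 members (red) and for Tfdp1, Tfdp2, Mybl2 and Foxm1 (grey). Of the members, E2f2, E2f6, E2f7 and E2f8 have unadjusted intervals below 0 and E2f5 has its interval above 0, and none of these passed adjustment over all genes.

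The rat numbers, which the labels give with no further meaning, split the animals into rats 1 to 4 and rats 5 to 9, a split taken up because libraries had been seen to differ along it. In E2f2 the controls 1 and 4 (11.3 and 9.67 CPM) lay above the controls 5 and 9 (8.17 and 7.12 CPM), and controls 1 and 4 were also the higher ones in E2f3, E2f7 and E2f8. Within rats 1 to 4 the edgeR log2 fold changes were -0.36 for E2f8, -0.48 for E2f2 and -0.17 for E2f7. Within rats 5 to 9 they were -0.16 for E2f8, -0.22 for E2f2 and -0.07 for E2f7. The sign was the same in both sets, and no member passed in either. With the split as a block, the edgeR adjusted p was 0.0749 for E2f8 and 0.186 for E2f2. These values rest on a split taken from these data, and the labels name no batch.

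Counts of 2 genes in the same library give a ratio that no scaling factor can move, so 6 such ratios were formed among the members. Per 100 E2f1 counts there were 72.9, 76.9, 68.1 and 73.7 E2f8 counts in control rats 1, 4, 5 and 9 and 51.1, 64.5, 63.5 and 60.1 in DXO rats 2, 3, 6 and 8. All DXO rats were below all controls, with means of 72.9 ± 3.61 and 59.8 ± 6.11 (SD, n = 4 each). Per 100 E2f7 counts there were 86.0 ± 2.40 E2f8 counts in controls and 78.1 ± 2.24 in DXO rats, and again the groups did not overlap. E2f2 per 100 E2f3 counts (73.1 ± 6.12 and 59.1 ± 5.12) and E2f6 per 100 E2f5 counts (104 ± 3.39 and 90.7 ± 6.45) did not overlap either. E2f7 per 100 E2f1 counts (84.8 ± 4.33 and 76.4 ± 5.84) and E2f2 per 100 E2f1 counts (11.7 ± 1.84 and 9.01 ± 0.882) overlapped between the groups. These ratios were formed with the values of the members known and carry no test.

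**Figure D3:**
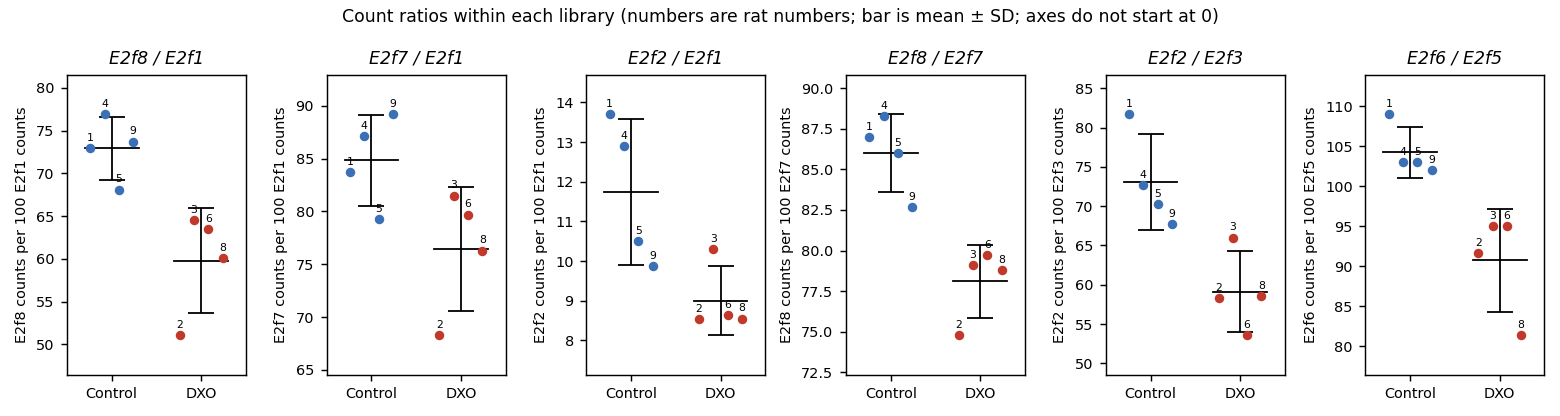
Count ratios between members within each library (vertical axes, counts of the first gene per 100 counts of the second, not starting at 0) for control (blue) and DXO (red) rats, with rat numbers and mean ± SD. The DXO rats lie below all controls for E2f8 over E2f1, E2f8 over E2f7, E2f2 over E2f3 and E2f6 over E2f5, and the groups overlap in the other 2 ratios.

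Promoter sequence was examined because E2f7, E2f8 and the replication genes are known E2F targets. RefSeq promoter windows (GRCr8, 250 bases before to 50 after the start) were matched for 5 of the 10 members, E2f3, E2f6, E2f7, Rbl1 and Rbl2. A full E2F site (TTTGGCGC, TTTCGCGC, TTTCCCGC or TTTGCCGC on either strand) was found in 2 of these 5 windows, E2f3 and Rbl1, against 2.25% of 27457 promoters. In Rbl1 it read TTTCGCGC and began 18 bases before the start, and in E2f3 it read GCGGGAAA on the gene's strand and began 78 bases before the start. The start used for a window can lie inside the annotated gene, and the windows of Rbl1 and E2f6 lay wholly inside it. The site without its first T, a 7-letter core that is part of every full site, was found in E2f3, E2f7 and Rbl1, and in 10% of all promoters. The windows of E2f7 and E2f3 are shown up to the first base of the annotated gene, in lower case with the E2F cores in capitals, since E2f7 holds 3 cores and no full site and E2f3 holds a full site.
E2f7, GRCr8 chr7:48036653-48036880, plus strand: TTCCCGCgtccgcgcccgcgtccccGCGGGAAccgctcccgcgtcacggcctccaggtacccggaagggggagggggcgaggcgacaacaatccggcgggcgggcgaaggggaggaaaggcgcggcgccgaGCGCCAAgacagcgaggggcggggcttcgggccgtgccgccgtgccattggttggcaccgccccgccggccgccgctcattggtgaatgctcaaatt
E2f3, GRCr8 chr17:34810166-34810354, plus strand: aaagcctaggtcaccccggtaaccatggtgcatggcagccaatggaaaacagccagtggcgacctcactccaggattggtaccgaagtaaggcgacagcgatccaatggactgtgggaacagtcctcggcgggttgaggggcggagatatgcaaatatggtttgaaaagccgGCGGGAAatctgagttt
In E2f7 the cores begin 250, 225 and 119 bases before the start, and 2 CCAAT boxes (CCAAT or its reverse complement, in 37.7% of all promoters) begin 73 and 41 bases before it. In E2f3 a second core begins 49 bases before the start, beyond the stretch shown, and a CHR element (TTTGAA or its reverse complement, in 18.1% of all promoters) begins 90 bases before it. The log2 fold changes were -0.13 for E2f7 and -0.06 for E2f3, and a match in these letters is no measure of binding.

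The other parts of the switch were read from lists chosen with earlier results of these data known. The dimerisation partners Tfdp1 (295.5 ± 11.1 and 283.9 ± 5.74 CPM in controls and DXO rats) and Tfdp2 (46.3 ± 2.45 and 46.5 ± 2.75 CPM) stood at -0.06 and 0.01 on the log2 fold scale, and neither passed (edgeR adjusted p = 0.835 and 0.996). The MuvB core joins E2f4 or E2f5 and a pocket protein in the repressive DREAM complex, and joins B-Myb and FoxM1 when mitotic genes are switched on. Of 7 genes of this list 0 passed edgeR or DESeq2 over all genes, with a median log2 fold change of -0.04. At an unadjusted p below 0.05, 1 gene was higher, against 4.19% of all genes. Leaving out 1 rat at a time put the list median between -0.0508 (without DXO rat 3) and -0.00112 (without DXO rat 6). Within rats 1 to 4 it was above 0, at 0.0233, and within rats 5 to 9 it was -0.0209. The gene below 0.05 was Mybl2, which encodes B-Myb, at 216, 207, 218 and 205 CPM in control rats 1, 4, 5 and 9 and at 226, 223, 223 and 230 CPM in DXO rats 2, 3, 6 and 8. All its DXO libraries were above all controls, as for 2.77% of all genes (log2 fold change 0.09 ± 0.03, edgeR adjusted p = 0.517). Foxm1 stood at 90.0 ± 5.75 and 90.5 ± 5.05 CPM, while Rbbp4 and Lin54 had log2 fold changes of -0.06 and -0.05.

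Of the 8 G1 cyclins and kinases that act on pocket proteins, 0 passed edgeR or DESeq2 over all genes. At an unadjusted p below 0.05, 1 was lower, against 2.56% of all genes. The list had a median log2 fold change of -0.04. That median ranged from -0.0815 (without DXO rat 2) to -0.00161 (without DXO rat 6) when 1 rat was left out. The lowest p was that of Ccne2, cyclin E2, itself an E2F target, with 39.2 to 45.4 CPM in controls and 34.8 to 38.4 CPM in DXO rats (log2 fold change -0.18 ± 0.06, edgeR adjusted p = 0.451). Cyclin D2 (Ccnd2) and cyclin E1 (Ccne1) both stood at -0.22 on the log2 fold scale and did not pass (edgeR adjusted p = 0.765 and 0.869). Among 5 CDK inhibitors, unadjusted p was below 0.05 for 3 higher and 1 lower, against 4.19% and 2.56% of all genes. Over all genes edgeR called 0 of these inhibitors. DESeq2, which called 0.897% of all genes higher, called 1 of them higher. It was Cdkn1a, the p21 inhibitor named above, at 5.37 to 6.14 CPM in controls and at 36.0, 15.0, 15.1 and 16.9 CPM in DXO rats 2, 3, 6 and 8 (DESeq2 adjusted p = 6.44e-06; edgeR adjusted p = 0.107, and 1.02e-06 without DXO rat 2). DXO rat 2, the highest in Cdkn1a, was the lowest DXO rat in E2f8, E2f7, E2f4 and Rbl1. It was the highest DXO rat in E2f1, E2f5 and E2f6 and neither in E2f2, E2f3 and Rbl2. A link with Cdkn1a was not tested. The log2 fold changes of Cdkn1c (0.25) and Cdkn2d (-0.27) did not pass (edgeR adjusted p = 0.578 and 0.651).

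The medians of the 2 classes of genes that the switch controls lay on opposite sides of 0. Of 38 E2F targets of G1/S, 34 had log2 fold changes below 0 and 4 above (median -0.06), where 52.2% of all genes were negative. Their median was -0.0349 without control rat 1 and -0.0395 within rats 5 to 9. Over all genes edgeR called 0 of them, and DESeq2 called 1 higher, where it called 0.897% of all genes higher. An unadjusted edgeR p below 0.05 was reached by 7 lower and 1 higher, against 2.56% and 4.19% of all genes. Cdc45, a part of the replication helicase, measured 40.6 ± 2.24 and 35.6 ± 1.31 CPM (log2 fold change -0.19 ± 0.05, edgeR adjusted p = 0.291), and Clspn, a checkpoint adaptor, 131.1 ± 2.52 and 121.6 ± 4.92 CPM (log2 fold change -0.11 ± 0.04, edgeR adjusted p = 0.492). The symbol Cdc45 has more than 1 row in the table, of which the row with the highest mean was used. The gene that DESeq2 called was Tyms, thymidylate synthase, at 150, 127, 128 and 128 CPM in control rats 1, 4, 5 and 9 and at 219, 179, 171 and 193 CPM in DXO rats 2, 3, 6 and 8 (DESeq2 adjusted p = 2.31e-07, edgeR adjusted p = 0.0589). The log2 fold change of Tyms was 0.52, against the negative median of its list, and its promoter window holds a full E2F site, TTTGGCGC, 37 bases before the start. That site lies inside the annotated gene. Full E2F sites were found in 17 of 30 windows of the G1/S list (56.7%) and in 1 of 19 windows of the G2/M list (5.26%). The share over all promoters was 2.25%. The lists hold genes already known as targets, so such a contrast follows from how they were chosen. A link between the sites and the changes was not tested.

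Of 22 DREAM and MuvB targets of G2/M, all 22 had log2 fold changes above 0, from 0.06 to 0.31 (median 0.17), where 8108 of 16976 genes tested were above 0. Of them, 17 had no overlap between the groups, all higher after doxorubicin, as had 2.77% of all genes. When 1 rat was left out, the list median lay between 0.135 (without DXO rat 2) and 0.187 (without DXO rat 3). Prc1, a central spindle protein, passed edgeR over all genes (206, 204, 189 and 191 CPM in control rats 1, 4, 5 and 9; 251, 231, 236 and 226 CPM in DXO rats 2, 3, 6 and 8; adjusted p = 0.0446), where 0.106% of all genes were called higher. DESeq2 called 9 of the 22 higher, where 0.897% of all genes were called higher. The Prc1 call was lost in 6 of 8 fits that left out 1 rat, without control rat 4, 5 or 9 or DXO rat 3, 6 or 8, where the edgeR adjusted p reached 0.217. It was also lost with limma-voom (adjusted p = 0.071), with genes kept only at a mean of at least 1 CPM (edgeR adjusted p = 0.0542) and within rats 1 to 4 (edgeR adjusted p = 0.906). A CHR element, the sequence MuvB binds at G2/M promoters, was found in 14 of 19 windows of this list (73.7%). It was found in 2 of 30 windows of the G1/S list (6.67%) and in 18.1% of all promoters. These shares too follow from the choice of known targets, and a link with the changes was not tested.

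**Figure D4:**
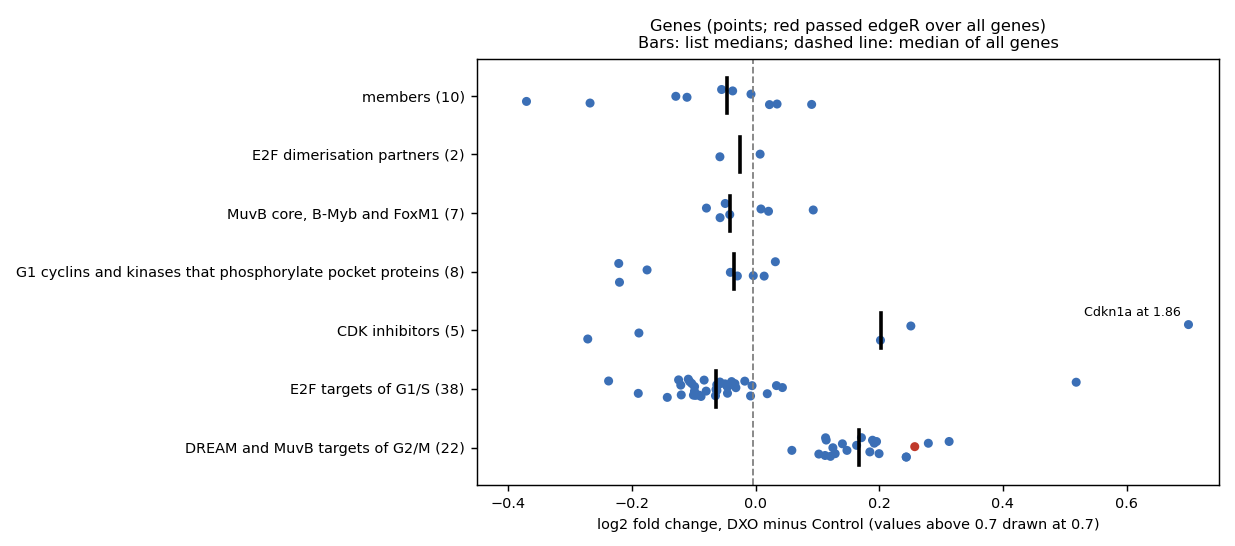
Log2 fold change of DXO against control rats (horizontal axis; values above 0.7 are drawn at 0.7) for the members and for each list of the E2F switch, with list medians as black bars and the median of all genes as a dashed line. The 22 G2/M targets all lie above 0 with Prc1 in red as the gene that passed edgeR, 34 of 38 G1/S targets lie below 0, and Cdkn1a is at 1.86.

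E2f8 had the lowest p of the members, and the genes most like it were sought by the root mean square difference between centred log2 CPM over the 8 rats, among 9361 other genes of at least 10 CPM. The nearest was Ccne2 (difference 0.0645 log2 units), followed by Intu, a planar polarity gene (0.0657), Itpr3, a calcium release channel (0.0667), Glb1l3 (0.0682) and Wdhd1, a replication fork protein (0.0699). Their log2 fold changes ranged from -0.22 for Itpr3 to -0.17 for Glb1l3. Over all genes 0 of the 5 passed edgeR, with adjusted p from 0.133 to 0.758. An unadjusted edgeR p below 0.05 was reached by 4, all lower, against 2.56% of all genes. DESeq2 called Itpr3 lower (adjusted p = 0.0105), where it called 0.0621% of all genes lower. The 5 genes were picked by likeness to a gene that was lower in all DXO rats. Their direction and p-values follow from that choice and carry no further weight. This likeness is a description over 8 libraries that include both groups.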

How the data were processed

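The authors deposited estimated counts per gene, not normalized, for 8 libraries. Build rn6 and the tools kallisto 0.48.0, fastp 0.23.2, DESeq2 1.40.2, featureCounts, Trimmomatic, MultiQC 1.12 and FastQC 0.11.9 stand in the submitters' processing notes, without roles. RNA with a RIN above 8 was used, per the labels' protocols. For strand and shared reads, the setting is not given in the sources used here.

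Here expected counts were rounded to whole numbers. After filterByExpr and TMM scaling, edgeR 4.0.16 (quasi-likelihood, robust, no covariate) was run in R 4.3.3, with Benjamini-Hochberg adjustment over 16976 genes at 0.05. SDs are over 4 rats, SEs come from the F value and intervals cover 95%, unadjusted. Every pair of libraries differed by more than sampling noise (chi-square per degree of freedom at least 6.22). On simulated counts edgeR called 26% of 50 genes changed 1.2-fold and 94% of 50 changed 1.5-fold. Of its 172 calls, 12 were false. Every simulated gene had the same biological spread (8.82%), which real genes do not share, so these shares do not carry over to single genes. At that setting a 1.2-fold change was mostly missed. Alternatives were DESeq2 1.42.0, limma-voom 3.58.1, other scalings and filters, a fit that was not robust, the rat number block and leaving out each rat. Fits within rats 1 to 4 and 5 to 9 and the 7-letter E2F core were added after seeing the data. The rat number block uses the same split, along which libraries had been seen to differ.

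The members and lists were chosen with earlier results of these data known. Named genes were the 10 members, Tfdp1, Tfdp2, Mybl2, Foxm1 and Cdkn1a, the genes of each list past edgeR or else the 3 with the smallest p, and the 5 genes most like the member with the smallest p. Promoters are from RefSeq (GRCr8), 1 per symbol.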

Additional observations from a re-analysis of the deposited data

Results flagged for a closer look

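Of 60 groups of 4 rats (30 named genes in each group), 2 held a value far from the other 3 rats, a flag that chance raises in about 1 of 20 groups (3 here), and neither was in an E2F factor or pocket protein. Cdkn1a stood at 36.0 CPM in DXO rat 2 against 15.0 to 16.9 CPM in the other DXO rats. Tyms stood at 150 CPM in control rat 1 against 127 to 128 CPM in the other controls.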

How the results depend on the processing

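No paired analysis was possible because control and DXO rats share no replicate number. Members called by edgeR stayed at 0 in each direction under every alternative, limma-voom called 0, and DESeq2 called 1 lower (E2f8). Over all genes the count of 19 became 170 with DESeq2, 5 with limma-voom, 53 without robust fitting and 61 with the rat number block. It ranged from 1 (control rat 5 or DXO rat 8 left out) to 62 (DXO rat 2 left out), with 11 after leaving out control rat 1 or DXO rat 6, 2 for control rat 4 and 3 for control rat 9. It was 0 within rats 1 to 4 (613 at an unadjusted p below 0.05) and 92 within rats 5 to 9, and the cause was not tested. E2f2, E2f5, E2f6, E2f7 and E2f8 kept their sign in all 18 alternatives, and E2f8 ran from -0.358 to -0.164 with adjusted p from 0.00918 (DESeq2) to 0.906 (edgeR, rats 1 to 4).

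Signs turned for log2 fold changes near 0. Leaving out 1 rat gave -0.00409 (DXO rat 2) to 0.0575 for E2f1, which was also negative without control rat 9, and -0.117 to 0.00316 (control rat 1) for E2f3. It gave -0.0155 to 0.00662 (control rat 4) for E2f4, which was also positive without DXO rat 2, and -0.0626 to 0.0147 (DXO rat 2) for Rbl1. For Rbl2 the range was -0.0087 (control rat 5) to 0.0862, with a negative value also without DXO rat 6. For Tfdp2 it was -0.0239 (control rat 4) to 0.0454, negative also without DXO rat 6 or 8, and for Foxm1 -0.0157 (control rat 1) to 0.0573, negative also without control rat 4 or DXO rat 3. Within rats 5 to 9, E2f3 was 0.083, E2f4 0.0223 and Foxm1 -0.0313, and within rats 1 to 4 Tfdp2 was -0.0361. Counting error at the lowest counts was 6.25% for Rbl2 and 6.05% for E2f2.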
